A study of Homo sapiens with 22 samples.

Results

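The regions described here were CTCF regions that were listed in HFFc6 fibroblasts and not in a human embryonic stem cell list, and that lay in chromatin open in HFFc6 and not in H1 embryonic stem cells. They were chosen by measured overlaps, as the regions of the HFFc6 CTCF peak list that overlapped no region of the stem cell CTCF list, overlapped an HFFc6 ATAC-seq region by at least 1 bp and overlapped no H1 ATAC-seq region. Of 82297 HFFc6 CTCF regions on chromosomes 1 to 22 and X, 28353 met this rule, which is 34.5% (95% Wilson interval 34.1 to 34.8%). The 4 peak lists held 532810 regions in all. The 28353 regions are called HFFc6-restricted CTCF regions, as a name for the rule and not for a mechanism. The overlaps chose them, so the counts and strengths of the regions are given as a description.

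The series held 22 libraries in 6 groups, all of human cell lines. HFFc6 is a single clone of foreskin fibroblasts immortalised with telomerase, and H1 cells are embryonic stem cells of human origin. The 3 groups with a list used here were HFFc6 CTCF by Cut&Tag (2 libraries), HFFc6 ATAC-seq (8 libraries, titled R1 or R2 with T1 to T4 under each) and H1 ATAC-seq (2 libraries). The 8 libraries thus carry only 2 R labels and may not be 8 separate cultures. No treatment is given for them, and 10 further HFFc6 libraries for SMC1 and 2 histone marks (H3K4me3, H3K27ac) did not enter the work. The Cut&Tag libraries carry HFF1 in their titles and HFFc6 as their cell line, which was followed. The stem cell CTCF list has no sample label that describes it, so its assay and exact cell line are unknown here. Each list was 1 call for a group with no values per library, so no difference between the lines could be tested against replicates. A region called in some cells and one open weakly in all cells cannot be told apart in such bulk data.

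CTCF is a zinc-finger protein that binds a long DNA motif and stops cohesin as it extrudes loops, which makes it a boundary and loop anchor factor. Many of its sites are bound in nearly all cell types, and a smaller set differs between cell types. ATAC-seq and Cut&Tag both use the transposase Tn5, which cuts accessible DNA. In ATAC-seq it acts alone, and in Cut&Tag an antibody tethers it to a protein. AP-1, a dimer of FOS and JUN family proteins, together with TEAD and RUNX factors, is known to act at fibroblast enhancers.

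The promoter sequences shown here come from the genes whose start lay in an HFFc6-restricted region of high CTCF fold enrichment, a ratio to local background that the peak caller computed. They are shown because the AP-1 motif was common in the gene start windows of HFFc6-restricted regions of any strength, at 30.7%. It was in 20.6% of the windows of HFFc6-only ATAC regions without CTCF and in 7.68% of all gene start windows. The share for HFFc6-restricted regions was 10.2% when an overlap of at least 50% was required. The CTCF core motif was rare in the HFFc6-restricted windows (0.355%), as it was in all gene start windows (0.472%). Each is the 250 bases before the gene start, written 5′ to 3′ on the gene's strand, from RefSeq with build GRCh38.p14. Capitals mark matches to AP-1 (TGANTCA) or TEAD (GGAATG) on either strand. The first 5 are the protein-coding genes with the strongest such regions, and among them only SRI has an AP-1 match. None of these windows held a CTCF core match.
LOC124903164, chr13:42747457-42747706, strand −: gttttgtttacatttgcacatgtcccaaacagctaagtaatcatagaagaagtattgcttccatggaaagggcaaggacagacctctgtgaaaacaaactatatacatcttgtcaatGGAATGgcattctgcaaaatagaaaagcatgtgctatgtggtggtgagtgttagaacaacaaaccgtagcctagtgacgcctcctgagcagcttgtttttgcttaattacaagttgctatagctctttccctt
SRI, chr7:88226977-88227226, strand −: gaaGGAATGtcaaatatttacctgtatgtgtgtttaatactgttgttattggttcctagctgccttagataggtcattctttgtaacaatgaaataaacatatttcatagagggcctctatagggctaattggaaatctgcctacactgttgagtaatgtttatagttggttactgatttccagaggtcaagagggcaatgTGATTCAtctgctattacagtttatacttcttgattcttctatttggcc
ZNF717, chr3:75785005-75785254, strand −: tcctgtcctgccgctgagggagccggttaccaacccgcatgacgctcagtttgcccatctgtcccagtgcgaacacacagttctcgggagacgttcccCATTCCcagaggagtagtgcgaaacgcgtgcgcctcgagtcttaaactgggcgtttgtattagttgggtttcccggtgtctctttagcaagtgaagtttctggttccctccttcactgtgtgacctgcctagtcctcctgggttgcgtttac
CBR1, chr21:36069774-36070023, strand +: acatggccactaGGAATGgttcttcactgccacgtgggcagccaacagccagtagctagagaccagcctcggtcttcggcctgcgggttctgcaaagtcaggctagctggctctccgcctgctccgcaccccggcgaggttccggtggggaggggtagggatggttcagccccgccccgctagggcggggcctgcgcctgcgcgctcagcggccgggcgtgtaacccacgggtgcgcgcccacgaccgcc
FGD4, chr12:32534072-32534321, strand +: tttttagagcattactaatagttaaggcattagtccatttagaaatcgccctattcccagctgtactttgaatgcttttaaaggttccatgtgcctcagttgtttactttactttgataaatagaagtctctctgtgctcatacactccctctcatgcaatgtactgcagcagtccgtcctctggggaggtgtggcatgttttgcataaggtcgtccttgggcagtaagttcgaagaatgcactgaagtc

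The next 4 are the strongest of the following genes with an AP-1 match, chosen after their values were seen, so they show what a match looks like and carry no count.
NPLOC4, chr17:81566603-81566852, strand −: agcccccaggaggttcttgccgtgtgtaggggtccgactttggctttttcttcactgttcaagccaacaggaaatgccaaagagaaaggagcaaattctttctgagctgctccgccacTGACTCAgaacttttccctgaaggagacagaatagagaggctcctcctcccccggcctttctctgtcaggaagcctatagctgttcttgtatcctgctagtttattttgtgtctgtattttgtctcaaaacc
TBC1D1, chr4:38119704-38119953, strand +: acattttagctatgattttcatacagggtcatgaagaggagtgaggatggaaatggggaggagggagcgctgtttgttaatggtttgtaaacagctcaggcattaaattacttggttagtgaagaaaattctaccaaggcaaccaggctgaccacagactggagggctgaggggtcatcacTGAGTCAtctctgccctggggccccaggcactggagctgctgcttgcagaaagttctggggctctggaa
CPA4, chr7:130292911-130293160, strand +: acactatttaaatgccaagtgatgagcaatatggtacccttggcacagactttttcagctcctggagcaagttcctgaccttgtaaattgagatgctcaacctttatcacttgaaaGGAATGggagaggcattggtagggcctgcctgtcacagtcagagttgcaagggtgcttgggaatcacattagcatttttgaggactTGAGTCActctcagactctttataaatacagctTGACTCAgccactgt
TEX2, chr17:64230735-64230984, strand −: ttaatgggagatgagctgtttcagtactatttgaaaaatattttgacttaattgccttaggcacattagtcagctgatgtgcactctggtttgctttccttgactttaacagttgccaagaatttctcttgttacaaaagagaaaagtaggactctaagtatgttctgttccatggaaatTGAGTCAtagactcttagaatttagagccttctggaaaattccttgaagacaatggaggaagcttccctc

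Most HFFc6-only CTCF lay in HFFc6-only open chromatin. Of the 40390 HFFc6 CTCF regions absent from the stem cell CTCF list, 70.2% were HFFc6-restricted. The count was 16442 when only peaks with a −log10 q of at least 10 were kept in the HFFc6 lists. A further 6822 were open in both lines, 4697 in neither and 518 in H1 alone. Of the CTCF regions shared with the stem cell list, 30756 were open in both lines and 4015 in HFFc6 alone. The mirror class, regions of the stem cell CTCF list that were absent from HFFc6 CTCF and lay in H1-only open chromatin, held 32910 regions. The share of HFFc6 CTCF regions that were HFFc6-restricted ranged over the 23 chromosomes between 17.9% on chromosome 19 and 40.0% on chromosome 21, with a median of 34.6% (SD 4.86 over chromosomes). On chromosome 19 the count was 560 of 3125 regions.

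Few regions lay within 100 bp of a limit of the rule, but the class did depend on the overlap required. With an overlap of at least 50%, which admits regions partly covered by stem cell regions, 37188 regions met the rule, against 28353. Only 157 HFFc6-restricted regions had a stem cell CTCF region closer than 100 bp, with a median CTCF fold enrichment of 4.07. On the other side of that limit, 179 regions that met the rest of the rule overlapped a stem cell CTCF region by 1 to 100 bp, with a median of 4.27. For H1 open chromatin the counts were 301 inside (median 4.17) and 518 outside (median 3.94). For HFFc6 open chromatin, 165 regions had 1 to 100 bp in an ATAC region (median 2.87), and 70 regions outside the rule lay closer than 100 bp to one (median 2.90). Within 5 kb, 38.3% of HFFc6-restricted regions had a stem cell CTCF region and 53.8% an H1 ATAC region.

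HFFc6-restricted regions were of moderate CTCF strength and lay in strongly open chromatin. Their median CTCF fold enrichment was 5.10, with 3.01 at percentile 10, 9.52 at percentile 90 and a range of 1.45 to 32.4. The median was 5.46 for HFFc6-only regions open in both lines, 3.02 for those open in neither, 6.86 for shared regions open in HFFc6 alone and 9.16 for shared regions open in both. A −log10 q of at least 10 was reached by 58.2% of HFFc6-restricted regions, against 91.4% of shared regions open in both lines and 7.47% of HFFc6-only regions open in neither. Their median width was 547 bp, against 970 bp for shared regions open in both. The HFFc6 ATAC region over them had a median fold enrichment of 10.3, against 10.2 over HFFc6-only regions open in both lines, 9.51 over shared regions open in both and 5.90 over shared regions open in HFFc6 alone. The ATAC regions over both HFFc6-only classes were thus of about the same strength.

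**Figure D1:**
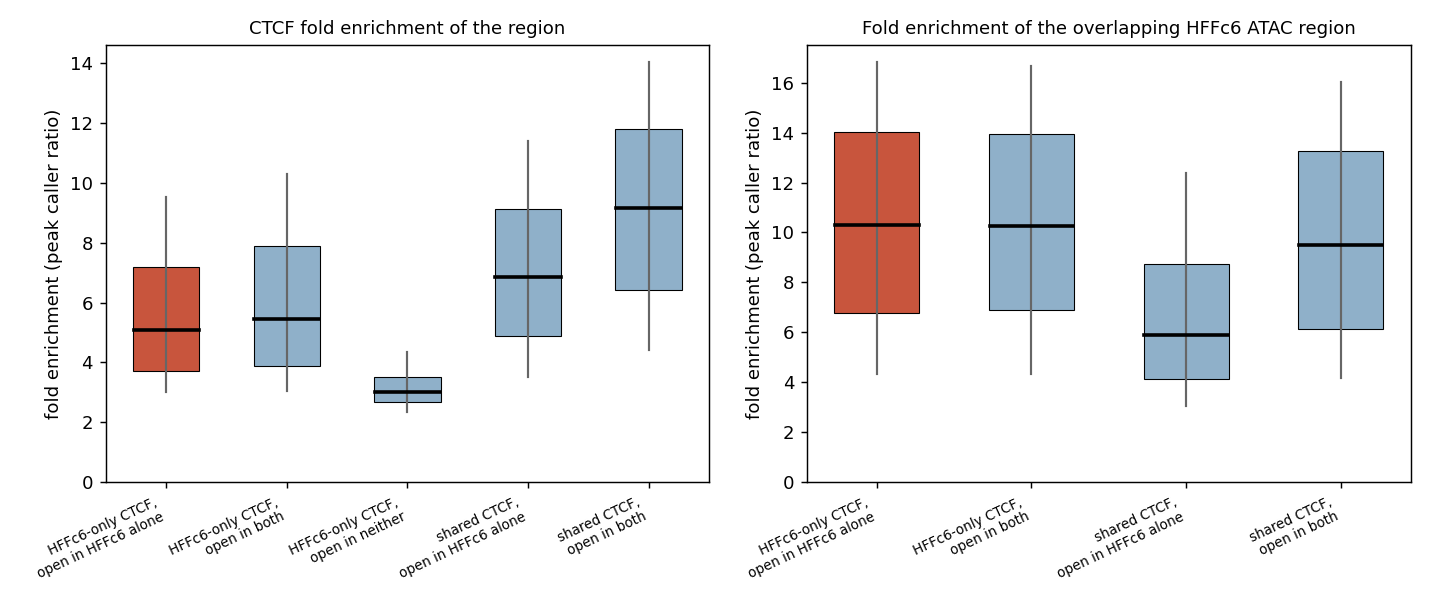
CTCF fold enrichment (left) and the fold enrichment of the overlapping HFFc6 ATAC region (right) for each class of HFFc6 CTCF region. Black lines are medians, boxes span percentiles 25 to 75 and grey lines percentiles 10 to 90. HFFc6-restricted regions (red) have a median CTCF fold of 5.10 against 9.16 for shared regions open in both lines, with median ATAC folds of 10.3 and 9.51.

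The CTCF and ATAC summits of HFFc6-restricted regions were mostly close. The median distance between the CTCF summit and the ATAC summit was 57 bp, with 129 bp at percentile 75 and 271.8 bp at percentile 90, and 68.6% were within 100 bp. Shared regions open in HFFc6 alone had a median of 42 bp. Shared regions open in both lines had a median of 51 bp and 71.6% within 100 bp, and HFFc6-only regions open in both had 72 bp and 59.9%. Of the HFFc6-restricted regions, 75.3% lay wholly inside the ATAC region. The 28353 regions fell in 27884 ATAC regions, of which 27398 held 1, 482 held 2 and 4 held 3. In 94.7% the ATAC region itself overlapped no H1 ATAC region, and in the others it met one outside the CTCF region.

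The share of HFFc6-only ATAC regions that held an HFFc6-restricted CTCF region moved with how open they were. The 101679 HFFc6-only ATAC regions were ranked by ATAC fold enrichment and divided into 5 equal groups. The share with an HFFc6-restricted region was 4.88% in the weakest group (median ATAC fold 2.41), then 8.23, 17.1 and 35.5%, and 64.1% in the strongest (median ATAC fold 13.8). HFFc6-only ATAC regions with such a CTCF region had a median ATAC fold of 10.5, against 4.18 for the 71112 without any HFFc6 CTCF region. Within the class, CTCF fold and ATAC fold had a Spearman rho of 0.616 over 28353 regions. It was 0.627 for HFFc6-only regions open in both lines, 0.483 for shared regions open in both and 0.351 for shared regions open in HFFc6 alone. These correlations are across regions of the same pair of lists, which are not independent replicates. Both assays cut with Tn5, and the part of chromatin opening itself in these CTCF calls was not tested. When HFFc6 CTCF regions were ranked by CTCF fold instead, HFFc6-restricted regions made up 42.3, 49.0, 40.9, 27.1 and 13.02% of the 5 groups, weakest first. Shared regions open in both lines made up 10.7% of the weakest and 75.2% of the strongest group.

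**Figure D2:**
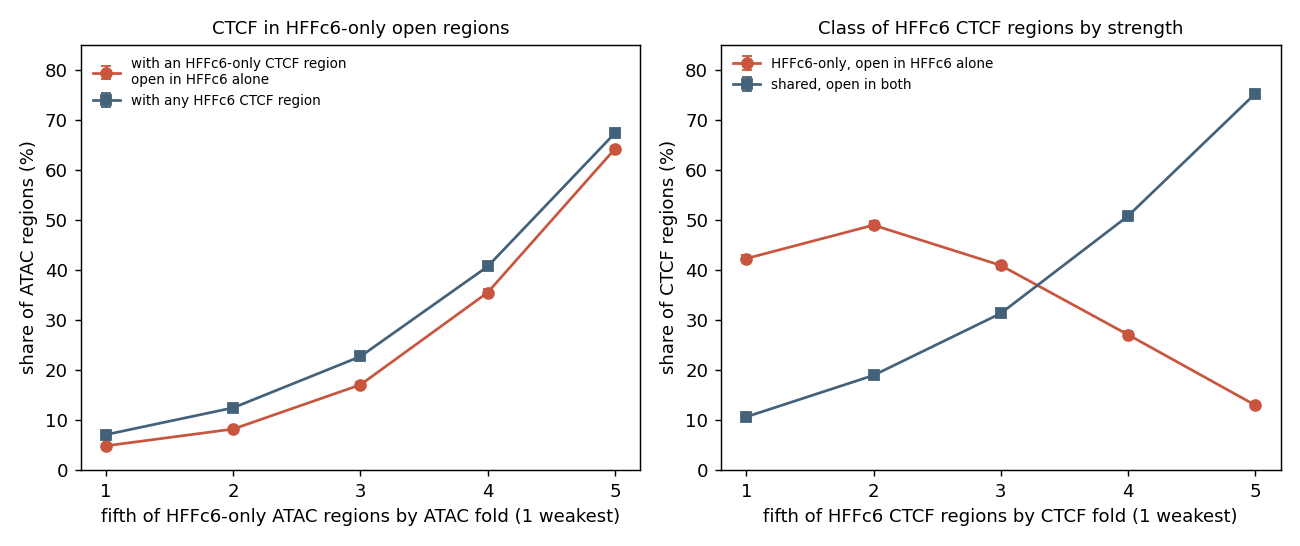
Left, share (%) of HFFc6-only ATAC regions that hold an HFFc6-restricted CTCF region (red circles) or any HFFc6 CTCF region (blue squares), in 5 equal groups by ATAC fold. Right, share (%) of HFFc6 CTCF regions that are HFFc6-restricted (red circles) or shared and open in both lines (blue squares), in 5 equal groups by CTCF fold. Bars are 95% Wilson intervals, mostly smaller than the symbols. The red line rises to 64.1% on the left and ends at 13.02% on the right.

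HFFc6-restricted regions lay mostly inside genes and away from gene starts, as did the other classes shown that were not open in both lines. Of them, 6.85% were within 1 kb of the start of a protein-coding or lncRNA gene, 64.9% were elsewhere in a gene and 28.2% between genes. The share elsewhere in a gene was 67.9% for HFFc6-only regions open in neither line, 61.2% for shared regions open in HFFc6 alone and 59.1% for HFFc6-only ATAC regions without HFFc6 CTCF. It was 54.5% for the mirror class, 48.2% for HFFc6-only regions open in both lines and 35.4% for shared regions open in both. The share of the genome inside genes is not given here, so these shares are compared only with each other. The share near a gene start was 28.4% for HFFc6-only regions open in both lines and 39.9% for shared regions open in both. It was 7.41% for HFFc6-only regions open in neither line, 7.57% for shared regions open in HFFc6 alone, 7.73% for the mirror class and 4.34% for HFFc6-only ATAC regions without HFFc6 CTCF. On 23 of 23 chromosomes the share was lower in HFFc6-restricted regions than in either class open in both lines. On 23 of 23 it was higher than in HFFc6-only ATAC regions without CTCF. Over chromosomes it ranged between 4.13 and 13.4% (SD 2.004). The share depended on the overlap rule: with an overlap of at least 50% required, regions partly covered by stem cell regions also entered, and 13.4% of 37188 lay near a gene start. The median distance to the nearest protein-coding gene start was 36627 bp for HFFc6-restricted regions, 24901.5 bp for HFFc6-only regions open in both lines, 10854.5 bp for shared regions open in both and 52062.5 bp for HFFc6-only ATAC regions without CTCF.

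**Figure D3:**
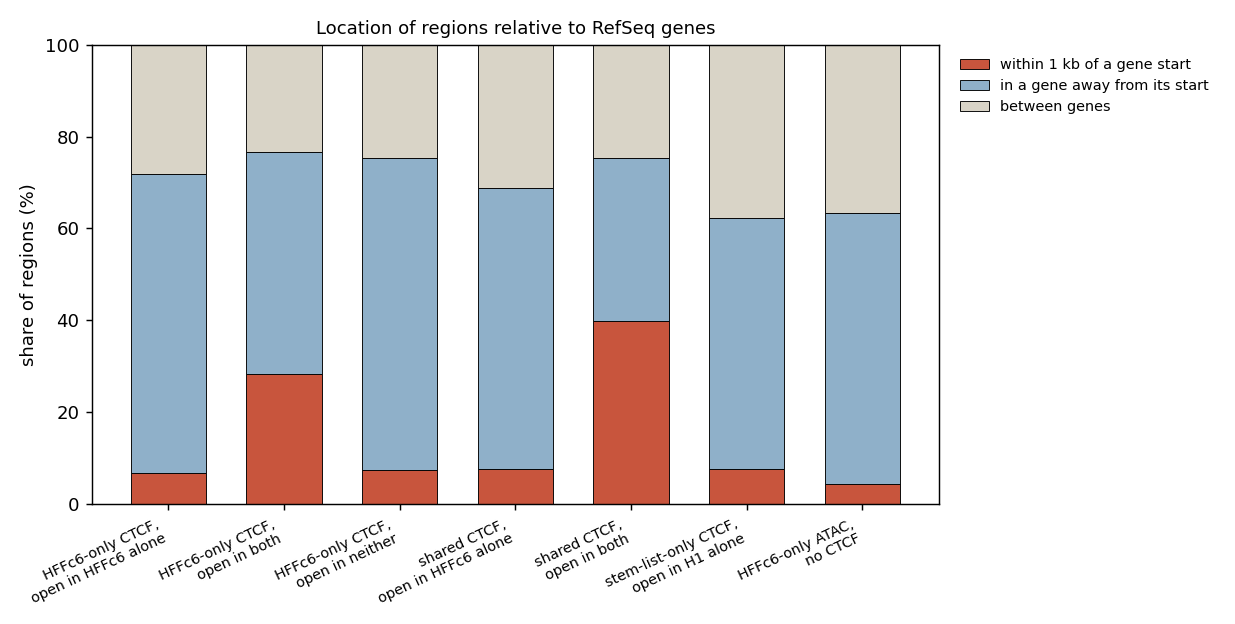
Share (%) of regions within 1 kb of a RefSeq gene start (red), elsewhere in a gene (blue) and between genes (grey), for each class. HFFc6-restricted regions, on the left, have 6.85% near a gene start, and shared regions open in both lines have 39.9%.

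HFFc6-restricted regions were often near each other. Another region of the class lay within 10 kb of 41.0% of them, against 32.4% for shared regions open in both lines, 26.3% for the mirror class and 57.5% for HFFc6-only ATAC regions without CTCF. The share was higher than in shared regions open in both on 20 of 23 chromosomes and higher than in the mirror class on 23 of 23. For HFFc6-restricted regions it was 27.97% with a −log10 q of at least 10 in the HFFc6 lists and 32.8% with that limit in all lists. The other classes were not recounted under these limits. Classes of different size differ in this share by density alone, and the 6822 HFFc6-only regions open in both lines had 12.4%. The nearest shared CTCF region lay at a median of 14527 bp, against 15330.5 bp for HFFc6-only regions open in both lines, 8151 bp for those open in neither and 22847 bp for HFFc6-only ATAC regions without CTCF. A shared CTCF region was closer than 5 kb for 19.7%.

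The densest stretch lay beside a collagen gene. Fixed 100 kb windows with at least 1 HFFc6-restricted region numbered 12312, their median count was 2 and 18 windows held 10 or more. The window chr2:237200001-237300000 held 15, with CTCF fold enrichments between 2.66 and 9.003. It also held 19 HFFc6-only ATAC regions, 2 stem cell CTCF regions, 6 H1 ATAC regions, 0 shared CTCF regions and no protein-coding gene. The nearest protein-coding gene starts were those of COL6A3, a chain of type VI collagen, and COPS8, a subunit of the COP9 signalosome. Windows with 12 lay at chr5:135300001-135400000, over MACROH2A1, which encodes a histone variant, and at chr10:43800001-43900000, nearest ZNF32. Those with 11 lay at chr2:196200001-196300000, over HECW2, and at chr5:149400001-149500000, over CSNK1A1 and IL17B.

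Each HFFc6-restricted or mirror region was counted for 1 protein-coding gene, that with the closest start. Of 19974 protein-coding genes, 45.7% had at least 1 HFFc6-restricted region and 9.01% had 5 or more. More HFFc6-restricted than mirror regions were assigned to 28.3% of genes, and fewer to 30.0%. The 16 gene lists were drawn up with earlier results of these data known. Their counts are therefore a description and not a test, and are read against the shares of all protein-coding genes. Long genes and genes in gene-poor stretches collect more regions of any class, and an assignment says nothing about which gene a region acts on. Fibroblast matrix genes were longer (median 38.4 kb) than pluripotency genes (10.4 kb), against 24.2 kb for all protein-coding genes. Whether the lists differ at equal gene length was not tested.

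Genes of the fibroblast extracellular matrix carried many HFFc6-restricted regions. Of 27 genes in this list, 26 had at least 1 such region and 26 had more of them than mirror regions, with a median of 8 against 1. COL5A2, a chain of type V collagen, had 18 HFFc6-restricted and 0 mirror regions, beside 36 HFFc6-only ATAC regions. FN1 (fibronectin) and COL6A3 had 18 and 4 each. COL5A1 had 17 and 1, TNC (tenascin C) 17 and 6, COL1A2 of type I collagen 13 and 1, and FBN1 (fibrillin 1) 12 and 2. TIMP3, an inhibitor of matrix metalloproteinases, had 11 and 0. The exception was BGN (biglycan), with 0 of each class and 1 HFFc6-only ATAC region. COL1A1 had 6 and 3, and its strongest HFFc6-restricted region had a CTCF fold of 2.32. With a −log10 q of at least 10 required in the HFFc6 lists, which lowers the first count and raises the second, the difference for COL1A1 turned to −1. The number of matrix genes with more HFFc6-restricted regions stayed between 22 and 27 over the alternatives.

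Surface proteins, receptors and the actin system had the same balance on most genes. Of 17 fibroblast surface genes, 14 had more HFFc6-restricted than mirror regions. EGFR, the epidermal growth factor receptor, had 14 and 2, and CD44, a hyaluronan receptor, had 11 and 2. THY1 went the other way with 3 and 6, although its product is used as a fibroblast surface marker. Of 16 actin and contractile genes, 12 had more HFFc6-restricted regions and 1 had more mirror regions. PALLD (palladin, an actin bundling scaffold) had 21 and 4, CALD1 (caldesmon) 13 and 2, and TPM1 (tropomyosin 1) 19 and 12. TAGLN (transgelin) had 0 and 1, and ZYX (zyxin) 0 of each. Of 16 housekeeping genes, 6 had more HFFc6-restricted and 2 more mirror regions, with a median of 0 for each class.

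Transcription factor genes were mixed. Of 21 mesenchymal factors, 14 had more HFFc6-restricted regions and 4 more mirror regions. RUNX1 had 24 and 4, TWIST2 19 and 4, and RUNX2, a regulator of the bone lineage, 15 and 3. MEOX2 had 1 and 6, OSR1 3 and 9, and NFIA 11 and 14. Among 11 AP-1 family genes, 6 had more HFFc6-restricted and 2 more mirror regions. JUN had 11 and 2, FOSL2 7 and 1, and FOS 3 and 4. For the TEAD and YAP list, whose products relay cell tension and contact to transcription, 11 of 14 had more HFFc6-restricted regions. TEAD1 had 15 and 4, CCN2 10 and 5 and WWTR1, which encodes the co-activator TAZ, 7 and 2. CCN1, another classical target, had 0 and 2.

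Of 17 TGF-beta pathway genes, which act in matrix production, all had at least 1 HFFc6-restricted region and 12 had more of them than mirror regions. LTBP1, which binds latent TGF-beta in the matrix, had 19 and 1. TGFB2, a ligand, had 10 and 1. Among receptors, TGFBR3 had 11 and 2 and TGFBR2 14 and 11. SMAD3, a signal transducer, had 17 and 6. INHBA, which encodes an activin subunit, had 12 and 17. Of 12 CTCF and cohesin genes, 7 had more HFFc6-restricted and 3 more mirror regions, with CTCF itself at 2 and 1.

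Pluripotency and neural progenitor genes had the opposite balance. Of 21 pluripotency genes, 1 had more HFFc6-restricted regions and 16 had more mirror regions, with a median of 0 against 3. SOX2, a core pluripotency factor, had 0 and 25, PRDM14 0 and 7 and DPPA4 2 and 11. HFFc6-only ATAC regions assigned to these genes numbered 5 for SOX2, 0 for PRDM14 and 35 for DPPA4. SALL4 was the exception with 6 and 3, a difference that turned to −1 under the q limit in the HFFc6 lists. The number of pluripotency genes with more mirror regions stayed between 14 and 20 over the alternatives. Of 10 neural progenitor genes, 8 had more mirror regions: OTX2 had 0 and 17 and SOX1 0 and 10. NEUROG2 had 5 and 2.

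Gene lists of other cell types were also counted. At least 1 HFFc6-restricted region was found for 9 of 10 endothelial, 4 of 7 melanocyte, 7 of 15 epithelial junction, 4 of 10 blood and 3 of 10 keratinocyte genes, against 45.7% of all protein-coding genes. Of 10 keratinocyte genes 2 had more HFFc6-restricted regions and 4 more mirror regions, of 15 epithelial junction genes 3 and 7, of 7 melanocyte genes 2 and 3, of 10 endothelial genes 3 and 5, and of 10 blood genes 4 and 4. The median count of HFFc6-restricted regions per gene was 0 for keratinocyte, epithelial and blood genes, 1 for melanocyte and 2 for endothelial genes. KRT5 and KRT14, which encode basal keratinocyte keratins, and SOX10, the neural crest factor of melanocytes, had 0. GRHL3, a factor of epidermal differentiation, had 7 and 4, the melanocyte genes MITF and DCT had 8 and 4 and 7 and 7, and the epithelial adhesion gene EPCAM had 6 and 2. CDH5, the endothelial cadherin, had 9 and 10, and PTPRC, the leukocyte phosphatase CD45, had 11 and 5. Their assignment is by distance only. CSF1R, with 7 and 2, is the direct neighbour of the fibroblast gene PDGFRB, with 2 and 0.

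**Figure D4:**
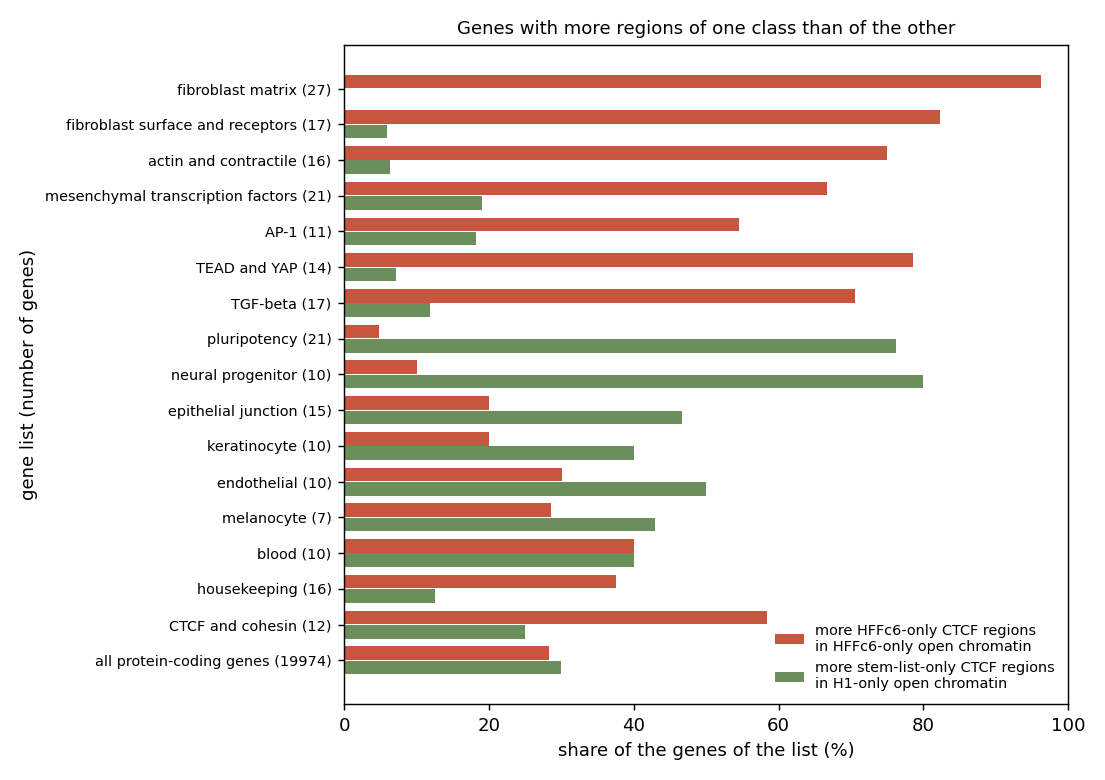
Share (%) of the genes of each list with more HFFc6-restricted CTCF regions than mirror regions (red) and with fewer (green), by nearest gene start. Numbers in brackets are genes in the list. The lists were drawn up with earlier results of these data known. For the fibroblast matrix list 26 of 27 genes have more and 0 fewer, and for the pluripotency list 1 of 21 has more and 16 fewer.

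The 15 genes with the most HFFc6-restricted regions were ASAP1 (37, against 5 mirror regions), TNS3 (34 against 10), HEMK2 (31 against 6), SPOCK1 (31 against 9), KCNMA1 (30 against 14), LPP (30 against 5), TNS1 (29 against 11), CDH11 (28 against 28), HMGA2 (27 against 7), MYC (27 against 11), CITED2 (26 against 11), TCF4 (26 against 14), BNC2 (25 against 16), EXT1 (25 against 9) and FOXP1 (25 against 9). Tensins (TNS1 and TNS3) and LPP encode proteins of focal adhesions, which join actin to the matrix. CDH11 encodes a mesenchymal cadherin and had as many regions of either class as reported, but its difference moved with the rule. It was −15 under the q limit in the HFFc6 lists, 18 at 50% overlap and 12 with lists of equal length. Under that q limit the differences for TCF4 and BNC2 turned to −4 and −1. These genes had a median length of 317 kb, against 24.2 kb for all protein-coding genes. MYC (7.52 kb) and CITED2 (2.84 kb) are short, and most regions counted for them must therefore lie outside the gene. The 15 genes held 431 regions, which is 1.52% of the class, so the class was spread over 9136 genes.

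The 10 strongest HFFc6-restricted regions by CTCF fold enrichment included 2 in pseudogenes. The strongest, at chr17:53105887-53106381, had a CTCF fold of 32.4 and an ATAC fold of 41.0, and lay in MTCO1P40, a nuclear copy of a mitochondrial gene. The next, at chr5:70585659-70586302 in the pseudogene GUSBP15, had 32.2 and 39.8. Those nearest FAHD2A (28.2), GRAPL (22.7) and TRIM43 (20.6) followed. The other five were inside DDX60 (18.4), inside ANXA8 (18.4), nearest TOR1AIP2 (18.1), nearest C1D (17.9) and inside CRACR2A (17.8). The 10 HFFc6-restricted regions in the strongest ATAC regions shared 4 with this list and added those nearest ZSCAN2 (ATAC fold 38.1), POMZP3 (33.6), CCDC200 (29.0), METTL14 (29.0), PPIAL4H (27.4) and ZNG1E (27.1). Of the added regions, those nearest METTL14 and PPIAL4H lay in the pseudogenes LOC729218 and SEC22B4P. Whether any of these strongest regions have near-identical copies was not measured, and the handling of reads that match several places is not stated. Their strengths are therefore uncertain, both inside pseudogenes and outside them. A pseudogene closer than 1 kb was found for 5 of the 100 strongest regions, 2.22% of all HFFc6-restricted regions and 3.32% of shared regions open in both lines.

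Gene starts inside HFFc6-restricted regions were few. RefSeq start windows, the 300 bases with 250 before and 50 from the start, were taken where the start lay in a region of the class. There were 564 such windows of 533 genes in 521 regions, 287 of protein-coding genes and 277 of lncRNA genes. Of 19974 protein-coding genes, 262 had a start in the class. Of these 262 genes, 154 had more than 1 start, and 89 had another start in shared CTCF open in both lines. Of the 234 listed genes, 9 had a start in an HFFc6-restricted region: COL6A3, DDR2, JUNB, WWTR1, SMAD7, LTBP3, PAX6, CD14 and TUBB.

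The strongest region over the start of a protein-coding gene had a CTCF fold of 15.3 at LOC124903164. It was followed by SRI, which encodes the calcium-binding protein sorcin, with 15.1, ZNF717 with 13.2 and CBR1, a carbonyl reductase, with 12.5. FGD4, an exchange factor for CDC42, had 12.1, NPLOC4, a ubiquitin-binding cofactor, had 11.9, and TBC1D1, a Rab regulator in glucose transport, had 11.8. CPA4, a carboxypeptidase, had 11.5, TEX2 11.2, ALPK1, a kinase of innate immunity, 10.9, and the histamine receptor gene HRH1 and the serpin gene SERPINB7 10.8 each. The overlapping ATAC fold of these 12 was between 8.46 and 20.5. Of the 12, SRI, FGD4 and TEX2 had another start in shared CTCF open in both lines.

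These windows had little of the composition of common promoters. Their median GC content was 51.5% with a median of 5 CpG dinucleotides, against 67.3% and 28 for starts in HFFc6-only regions open in both lines, and 65.7% and 27 for starts in shared regions open in both. Starts in HFFc6-only ATAC regions without CTCF had 48.0% and 3. All 34961 start windows had a median of 58.7% and 14.

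The AP-1 motif TGANTCA was in 173 of the 564 windows, 30.7% (27.01 to 34.6%), against 7.68% of all start windows. It was in 20.6% of the windows of HFFc6-only ATAC regions without CTCF, 8.84% for HFFc6-only regions open in both lines, 4.07% for shared regions open in both and 5.45% for the mirror class. Among windows of 45 to 55% GC the share was 39.9% (33.2 to 47.0%, 188 windows), against 21.8, 19.6, 7.91 and 6.38% in the same order and 11.9% of all. The window share was 10.2% when an overlap of at least 50% was required, a rule that admits regions partly covered by stem cell regions. Within the class, 41.9% of the 260 regions with the higher CTCF fold had an AP-1 match in a start window, against 22.99% of the 261 with the lower. The start windows of both kinds of HFFc6-only open region were also divided by ATAC strength, a split chosen after seeing the data. It covered 1230 windows, and not all of the 564 entered. Above an ATAC fold of 6.12 the share was 35.9% (31.2 to 41.0%, 370 windows) for HFFc6-restricted regions and 26.1% (21.0 to 32.0%, 245 windows) without CTCF. Under it the shares were 22.8% (16.1 to 31.3%, 114 windows) and 18.0% (14.9 to 21.6%, 501 windows). In both comparisons the intervals overlap, which is not a test of the difference. The groups were not matched in ATAC strength. Their median ATAC folds were 11.8 and 8.86 above the dividing value, and 4.33 and 3.42 under it.

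AP-1 matches lay close to the summits. In 308 HFFc6-restricted regions a start window held the CTCF summit, and 118 of these (38.3%) had an AP-1 match. The nearest match was at a median of 47.5 bp from the CTCF summit and 37.5 bp from the ATAC summit. It was within 50 bp of the CTCF summit in 60 regions and of the ATAC summit in 77. The medians to the CTCF summit were 76 bp for TEAD (80 regions), 65 bp for SP/KLF (GGGCGG, 73 regions) and 71.5 bp for NF-Y (CCAAT, 109 regions).

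Other motifs differed between classes in their own ways. RUNX (TGTGGT) was in 21.99% of HFFc6-restricted start windows, against 19.6% in HFFc6-only ATAC regions without CTCF, 8.91% in shared regions open in both lines and 13.1% of all windows. TEAD (GGAATG) was in 21.6%, against 22.8, 10.7 and 14.04%. ETS (CCGGAAG) was in 4.26%, against 3.62, 20.1 and 10.3%. SP/KLF was in 25.9%, against 17.3, 72.2 and 45.03%, and NF-Y in 32.1%, against 32.8, 36.4 and 34.6%. The classes differ in GC content. Among windows of 45 to 55% GC, RUNX was in 28.7%, against 21.1, 13.5 and 18.9% in the same order. TEAD was in 26.1% of them, against 25.3, 18.0 and 19.9%. For ETS, SP/KLF and NF-Y no shares in this GC range are given. All motifs were searched on both strands. An AP-1, TEAD or RUNX match can lie beside or across another match, and each was counted on its own.

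The CTCF core consensus was in 2 of 564 HFFc6-restricted start windows, 0.355% (0.0973 to 1.28%), against 0 of 1324 in HFFc6-only regions open in both lines, which allows up to 0.227%, 127 of 13131 in shared regions open in both (0.967%), 7 of 734 in the mirror class (0.954%), 4 of 746 in HFFc6-only ATAC regions without CTCF (0.536%) and 0.472% of all windows. The consensus is strict, the windows cover only gene starts and no genome sequence was used here, so the motif at the other regions of the class was not examined. A missing match says only that these letters are not in the window.

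**Figure D5:**
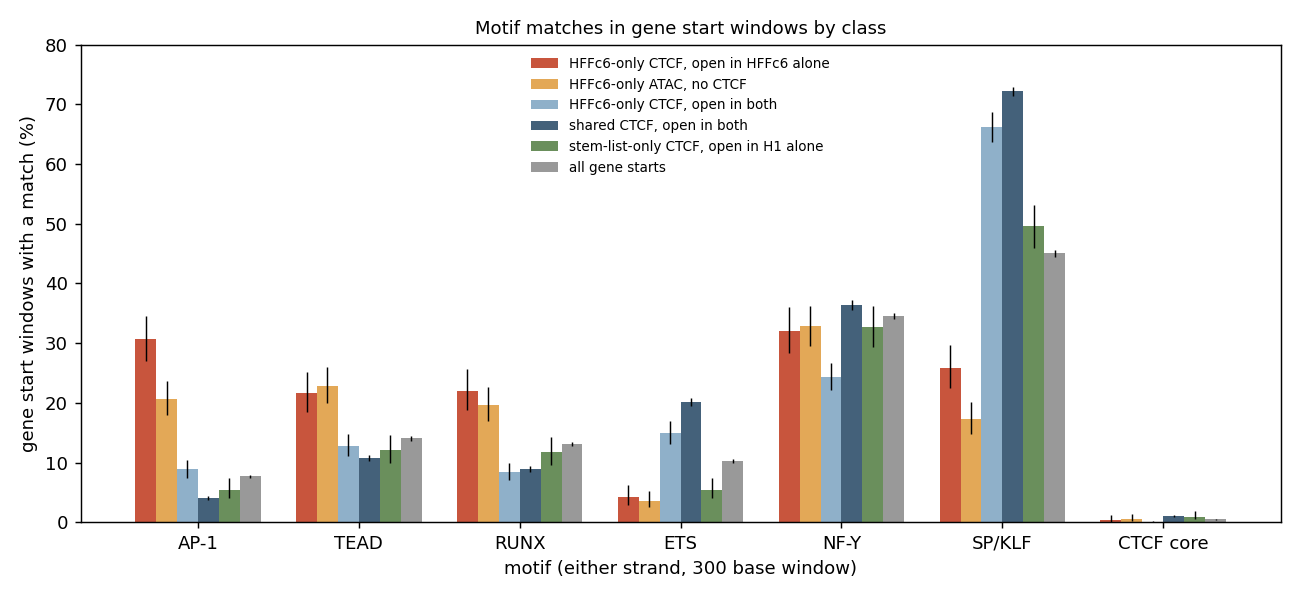
Share (%) of 300 base gene start windows with a match to each motif, for starts in each class of region and for all starts. Error lines are 95% Wilson intervals. AP-1 is in 30.7% of the windows of HFFc6-restricted regions (red), 20.6% of HFFc6-only ATAC regions without CTCF (orange) and 4.07% of shared regions open in both lines (dark blue).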

How the data were processed

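The 4 deposited narrowPeak lists were used. They covered HFFc6 CTCF, HFFc6 ATAC, H1 ATAC and stem cell CTCF. BWA alignment, MACS2 calling and bedtools on build hg38 are named in the submitters' processing notes, with no versions, filters or handling of replicates. The authors deposited for each peak a fold enrichment (ratio) and a −log10 q-value, which served to describe, rank and filter peaks within a list. Depth is unknown. Summit offsets come from the deposited files.

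Regions on chromosomes 1 to 22 and X were compared at a minimum overlap of 1 bp in Python 3.11.15. Gene starts, strands and sequences came from RefSeq GRCh38.p14 tables. For 4162 genes without a listed start, both ends were used. Intervals are 95% Wilson intervals for counting error only, and neighbouring regions are not independent. Where 0 windows had a match, the limit given is instead 3 divided by the number of windows. No test between lines was possible. On 2274 simulated regions the rule gave 0 disagreements with direct comparison, and 603 of 603 planted AP-1 motifs were found.

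The text names listed genes, the 15 genes with most regions, the 10 strongest regions by CTCF and by ATAC fold, the 12 strongest over gene starts and the 5 densest windows. Members and the 16 lists were chosen with earlier results of these data known.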

Additional observations from a re-analysis of the deposited data

Results flagged for a closer look

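In data that no comparison used, 207 HFFc6 CTCF peaks lay on sequences other than chromosomes 1 to 22 and X. They were outside the rule and were set against no other list.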

How the results depend on the processing

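The count of HFFc6-restricted regions was 16442 with a −log10 q of at least 10 in both HFFc6 lists and stayed within 1.5 times the reported count under the other alternatives. The share of HFFc6 CTCF regions was 28.7% with that limit in the HFFc6 lists, 35.0% with it in all lists, 45.2% at 50% overlap, 33.5% with 500 bp summit regions, 36.6% with lists of equal length, 32.7% with the ATAC region itself scored and 31.9% with stem cell regions widened. Scoring the ATAC region itself, the GC range, the windows with the CTCF summit and the division by ATAC fold were chosen after seeing the data. The share near a gene start was 8.86% (limit in all lists), 10.8% (2 kb), 4.66% (500 bp), 13.4% (50% overlap), 6.48% (summit regions), 7.24% (equal length), 5.84% (ATAC region scored) and 5.97% (widened). The share with a neighbour of the class was 27.97% (limit in HFFc6 lists), 32.8% (all lists), 61.0% (within 20 kb), 23.1% (within 5 kb), 47.1% (50% overlap), 38.4% (summit regions), 42.7% (equal length), 40.0% (ATAC region scored) and 39.0% (widened). The median distance to shared CTCF was 16468, 20011.5, 21063.5, 15834.5, 16104 and 14885 bp with the limit in HFFc6 lists, in all lists, 50% overlap, summit regions, equal length and widened regions. The AP-1 share was 35.6% and 26.97% with the limit in HFFc6 and all lists, 10.2% at 50% overlap, 39.9% at 45 to 55% GC, 38.3% for windows with the CTCF summit, and 35.9 and 22.8% above and under the dividing ATAC fold. The CTCF core share was 2.84% with 1 mismatch and 0% at 45 to 55% GC, where 0 of 188 allows up to 1.60%. Of 504 gene differences (HFFc6-restricted minus mirror), 495 kept their direction or were 0. POU5F1 reversed to 2 at 50% overlap, 2 with the limit in all lists and 2 within 50 kb. LIN28B reversed to 1 with the limit in all lists. With the limit in HFFc6 lists, TCF4 reversed to −4, and BNC2, COL1A1, TIMP1 and SALL4 to −1 each. The cause was not tested. No paired analysis was possible because the lists hold no values per library.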

Other observations

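Of 1558 RefSeq miRNA hairpins, 25 lay in an HFFc6-restricted CTCF region, and those named here were chosen after their values were seen. No share of hairpins in other classes is given beside it, so the count is a description and not a trait of the class. MIR4435-2 lay in the strongest of the regions with a hairpin, with a CTCF fold enrichment of 15.5. Hairpins of miRNAs known in mesenchymal cells were in weaker regions, MIR199A1 at 5.31 and MIR130A at 4.12. MIR34A, a known p53 target, was at 2.77, and MIR132 had the lowest, at 1.87.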
